A study of Homo sapiens with 4 samples.

Results

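Chromosome 9 was described from its 2994 bins of 40 kb that had a lamin B1 value in both of 2 prostate cancer cell lines, out of 71436 such bins on all 24 chromosomes. It was selected on measured values, namely the weak correlation of the lines along it. Every level, state and correlation below comes from that same contrast, so all are given as descriptions, with no test. By position, 973 bins lay in the short arm (up to 39 Mb), 274 in the repeat-rich middle (39 to 71 Mb) and 1747 in the long arm (from 71 Mb on).

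The values are from chromatin immunoprecipitation and sequencing (ChIP-seq) of LNCaP, an established prostate adenocarcinoma line, and VCaP, an established line from a bone metastasis of prostate cancer. Both were fixed with formaldehyde, and they grew in different media, RPMI for LNCaP and DMEM F12 for VCaP. Each line had 1 library made with a lamin B1 antibody and 1 input library made without antibody, so the 4 groups hold 1 library each. The deposited value of a bin is the log2 ratio of ChIP over input, and a deposited state per bin calls it associated with lamin B1 or not. With 1 library per group, no difference between the lines has a replicate check, and read depth is unknown. The errors given are the spread over bins, or a noise estimated from how much nearby bins of a line differ.

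Lamin B1 is a filament protein of the nuclear lamina, the meshwork under the inner nuclear membrane. DNA that touches this meshwork forms lamina-associated domains, which are typically long, gene-poor and little transcribed, and which partly differ between cell types. Chromosome 9 carries a large block of satellite heterochromatin beside its centromere, flanked on both sides by segmental duplications where short reads are hard to place. Its short arm holds the type I interferon genes, and the distal end of its long arm is known as gene-rich. All positions are in the hg19 build of the human genome.

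The deposited tables covered the arms well and the middle poorly. LNCaP had 3018 entries of 40 kb with a value on chromosome 9 and VCaP had 3005, of which 24 and 11 had no counterpart in the other line. Entries wider than 40 kb were left out; LNCaP had 28 of them (24 in the middle) and VCaP had 31 (27 in the middle). They included 4 entries over 1 Mb wide in each line, from 47320001 to 65000000, none of them in the associated state. The retained bins covered 34.25% of the middle. Of the middle's bins, 189 (69.0%) lay within 5 bins of a gap in the table, against 5 in the short arm and 28 in the long arm. Values in the middle were also noisier. For the difference between lines at 1 bin, the noise was an SD of 0.64 log2 units there, against 0.20 in each arm.

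VCaP had the higher median level in the middle and on the long arm, whereas the order on the short arm depended on the measure. The short-arm median of the log2 enrichment was 0.04 in LNCaP (interquartile range -0.19 to 0.40) and 0.09 in VCaP (-0.13 to 0.30). The median of the VCaP minus LNCaP difference was -0.09 per bin while the medians themselves differed by 0.04 in the other direction. It also depended on the scaling. Over all 71436 bins the genome median was 0.06 in LNCaP and 0.19 in VCaP, a shift of 0.13. Taken relative to that shift, the short-arm difference was -0.23, with LNCaP higher, and after quantile normalization it was -0.17.

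On the long arm the median was 0.02 in LNCaP (-0.16 to 0.19) and 0.23 in VCaP (-0.05 to 0.57). The difference per bin had a median of 0.25 and an SD of 0.53. VCaP was the higher line in 65.8% of the long-arm bins, against 58.1% of all common bins. Relative to the genome shift, the long-arm difference was 0.11, the same direction at a smaller size. The middle and the long arm thus kept VCaP as the higher line under both scalings.

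In the middle, LNCaP had its lowest level of the 3 parts. The median there was -0.31 in LNCaP (-0.71 to -0.04) and 0.13 in VCaP (-0.26 to 0.54), with a median difference of 0.45, or 0.32 relative to the genome shift. The interquartile range of LNCaP in the middle did not reach above 0. Over the 85 middle bins away from gaps, the medians were -0.27 and 0.13 and the difference was 0.31. The part of noise in the result was not tested.

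**Figure D1:**
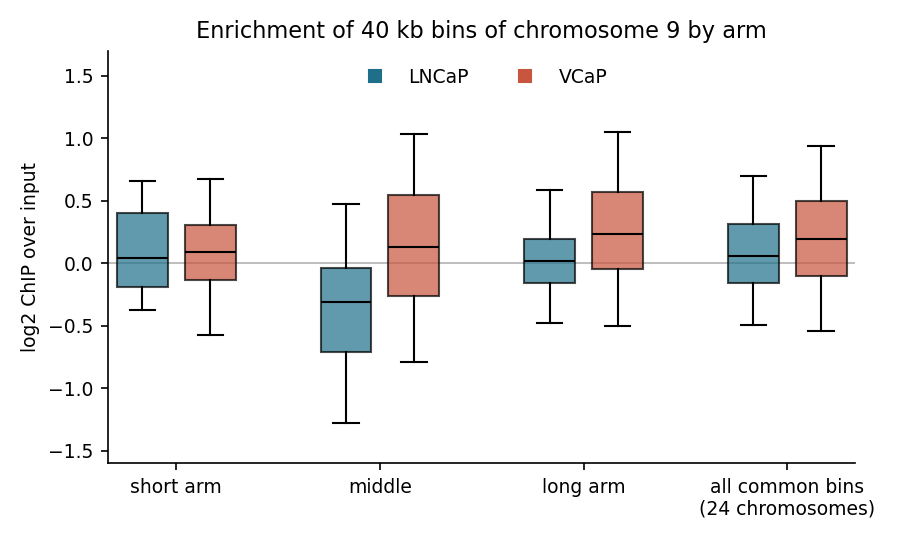
Log2 ratio of lamin B1 ChIP over input (vertical axis) of 40 kb bins for LNCaP (blue) and VCaP (red) in the 3 parts of chromosome 9 and over all common bins; boxes span the quartiles, the line is the median and whiskers reach the 5th and 95th percentiles of bins. The lines sit at 0.04 and 0.09 on the short arm, 0.02 and 0.23 on the long arm and -0.31 and 0.13 in the middle.

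At the edges of these parts the values were as follows. The last 5 bins of the short arm had medians of 0.18 in LNCaP and 0.06 in VCaP, and the first 5 of the middle had -0.33 and 0.17. The last 5 bins of the middle had -0.41 and -0.66, and the first 5 of the long arm had -0.03 and -0.16. Both lines were thus low just before 71 Mb, whereas only LNCaP was below 0 just after 39 Mb.

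In the deposited states, the arms had opposite orders in the lines. LNCaP was associated in 42.7% of short-arm bins and 26.2% of long-arm bins, whereas VCaP was associated in 25.6% and 47.7%. Across all chromosomes the shares were 37.9% in LNCaP and 44.4% in VCaP. The short arm thus stood above the genome share in LNCaP and below it in VCaP, and the long arm below it in LNCaP and near it in VCaP. In the middle the shares were 6.57% and 35.8%, and 12.9% and 25.9% away from gaps.

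The order on the short arm depends on how the state is called. With every bin over 0 counted as associated, the short-arm share was 53.2% in LNCaP and 61.0% in VCaP, so VCaP had the larger share. VCaP also had the larger share over all common bins by this call, 66.9% against 56.9% in LNCaP. The short arm was thus below the genome share in both lines. The same call gave 53.6% and 71.4% on the long arm, so the contrast between the arms was then absent in LNCaP and remained in VCaP. With the same number of top-ranked bins taken genome-wide in each line, it was 43.1% in LNCaP and 25.9% in VCaP, as with the deposited states. On the long arm VCaP had the larger share under each of these calls.

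By the deposited states, few bins of chromosome 9 were associated in both lines. There were 305 such bins, 10.2% of the chromosome, where the background over all chromosomes was 20.6%. VCaP alone was associated in 876 bins, 29.3% of the chromosome (background 23.8%), LNCaP alone in 586, 19.6% (background 17.2%), and neither line in 1227, 41.0% (background 38.4%). Bins associated in both were 17.3% of those associated in either, against 33.5% over all bins, 49.3% on chromosome 10 and 36.1% on chromosome 11, 2 chromosomes of 3286 bins each. These 305 bins were 34.2% of the LNCaP associated bins and 25.8% of the VCaP ones. Since the chromosome was chosen for weak agreement, its place below the background adds no support. The counts rest on the call: with bins over 0 after a running median of 5 bins, 1109 were associated in both lines, 560 in neither, 383 in LNCaP only and 942 in VCaP only.

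The arms filled these classes differently. On the short arm, 323 bins were LNCaP-only, 157 VCaP-only and 92 shared, and on the long arm 249 were LNCaP-only, 625 VCaP-only and 209 shared. LNCaP-only bins thus made up 33.2% of the short arm, and VCaP-only bins 35.8% of the long arm and 34.3% of the middle. LNCaP-only bins of the short arm had medians of 0.44 in LNCaP and 0.07 in VCaP. VCaP-only bins of the long arm had medians of -0.06 in LNCaP and 0.57 in VCaP.

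**Figure D2:**
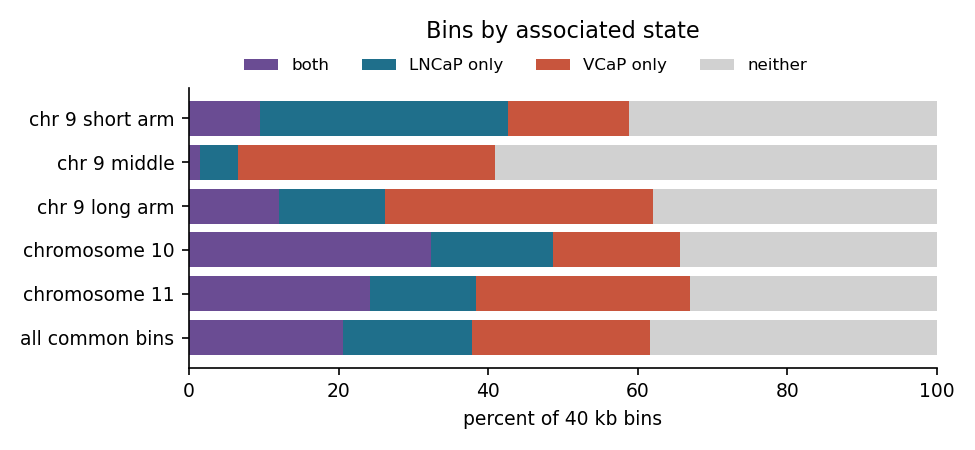
Percent of 40 kb bins (horizontal axis) in the deposited associated state in both lines, LNCaP only, VCaP only or neither, for the parts of chromosome 9, chromosomes 10 and 11 and all common bins. Shared bins make up 9.46% of the short arm, 1.46% of the middle and 12.0% of the long arm, against 20.6% of all bins.

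A difference of at least 0.5 on the log2 scale, 1.41-fold, was taken as large. VCaP was higher by that much in 832 bins of chromosome 9, 27.8% (background over all chromosomes 21.3%), and LNCaP in 320 bins, 10.7% (background 9.33%). On the long arm 559 bins (32.0%) were higher in VCaP and 171 (9.79%) in LNCaP. The short arm held large differences of both directions, 144 bins (14.8%) higher in VCaP and 132 (13.6%) in LNCaP. In the middle 129 bins (47.1%) were higher in VCaP and 17 in LNCaP. Relative to the genome shift, the counts were 91 and 244 on the short arm, 111 and 28 in the middle and 437 and 258 on the long arm, so most large differences of the short arm then had LNCaP higher. Over all bins that scaling gave 14.8% higher in VCaP and 15.6% higher in LNCaP.

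Agreement over single bins was weak on every part of the chromosome. Across single bins, the Pearson r of LNCaP with VCaP was 0.144 and the Spearman rho 0.131, the lowest of the 24 chromosomes, whose r ranged to 0.503 with a median of 0.282. By part, r was 0.273 on the short arm (rho 0.251), 0.215 in the middle (rho 0.235) and 0.0864 on the long arm (rho 0.0981). Neighbouring bins share averaged values, and both lines of a bin share its position, mappability and base composition. Undoing the averaging of the deposited values gave 0.315 on the short arm, 0.127 in the middle and 0.168 on the long arm, so the middle was then the lowest part. Leaving out the long-arm bins from 125 Mb on gave 0.138. In each of these the long arm stayed below the short arm. In the middle, r was 0.377 over the 85 bins away from gaps.

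Shifting one line along the other did not raise the correlation. With VCaP moved by 40 kb to either side, r was 0.248 and 0.241 on the short arm and 0.0578 and 0.0514 on the long arm, each below the unshifted value. No shift of up to 240 kb, the largest computed, gave a higher r than no shift on any of the 3 parts.

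On both arms the correlation was weak or negative for the levels of long stretches and stronger for the pattern inside them; the middle had the reverse. Windows of 1 Mb were used to separate these. The means of the 122 windows of chromosome 9 correlated at -0.0176 between the lines, with 0.0664 on the short arm (39 windows) and -0.161 on the long arm (70 windows). The bins of both lines, after subtracting the mean of their window, correlated at 0.402, with 0.526 on the short arm and 0.499 on the long arm. The local correlation of the arms was close to that of chromosome 10 (0.506) and chromosome 11 (0.508), and that of the middle was 0.166, where the means of 13 windows correlated at 0.459. Over all common bins, the means of 1 Mb windows correlated at 0.168 and the bins within them at 0.470. A stronger correlation inside windows was thus not particular to chromosome 9. With windows of 5 Mb, the means correlated at -0.470 on the short arm (8 windows), so the sign of that value rests on the window size.

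Chromosomes 9 and 10 differed mainly in the levels of the windows. Those means correlated at 0.406 on chromosome 10 and at 0.0938 on chromosome 11. On chromosome 9 the lines lay on the same side of their own chromosome median in 50 of 122 windows (41.0%), against 89 of 132 (67.4%) on chromosome 10 and 71 of 132 (53.8%) on chromosome 11. Single bins lay on the same side of their window mean in 68.6% of cases on chromosome 9, 68.2% on chromosome 10 and 69.1% on chromosome 11. The share was thus near equal for the local pattern and lower on chromosome 9 for the windows. By r, the local pattern of the whole chromosome was also lower, 0.402 against 0.506 and 0.508. Chromosome 9 was chosen for weak correlation of the lines, so these lower values add no support.

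**Figure D3:**
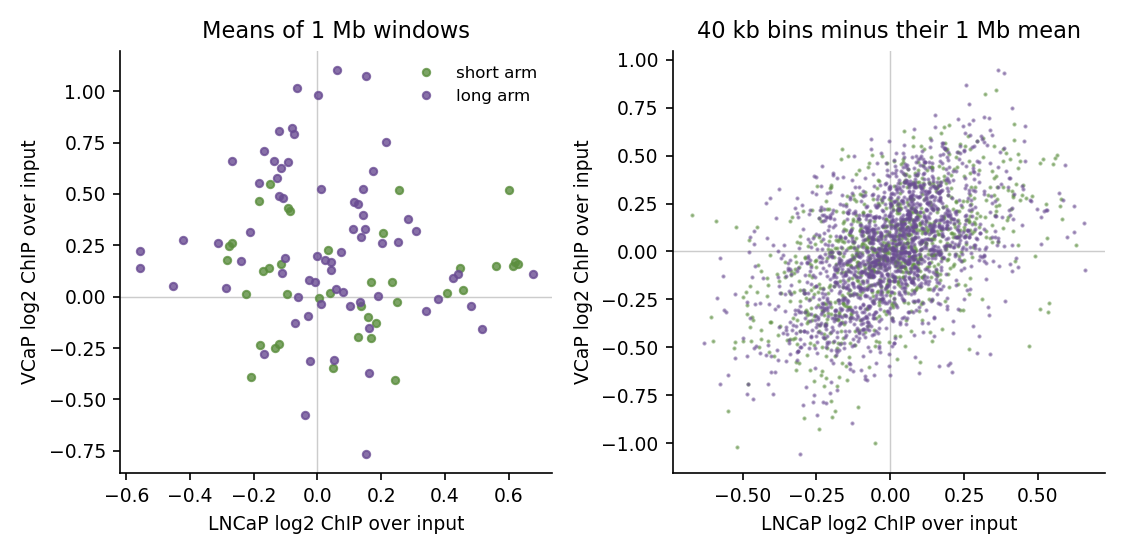
LNCaP (horizontal) against VCaP (vertical) log2 ChIP over input on the short arm (green) and long arm (purple) of chromosome 9, as means of 1 Mb windows (left) and as 40 kb bins minus their window mean (right). The window means form no line (r of 0.0664 and -0.161), and the bins within windows form a rising cloud (r of 0.526 and 0.499).

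**Figure D4:**
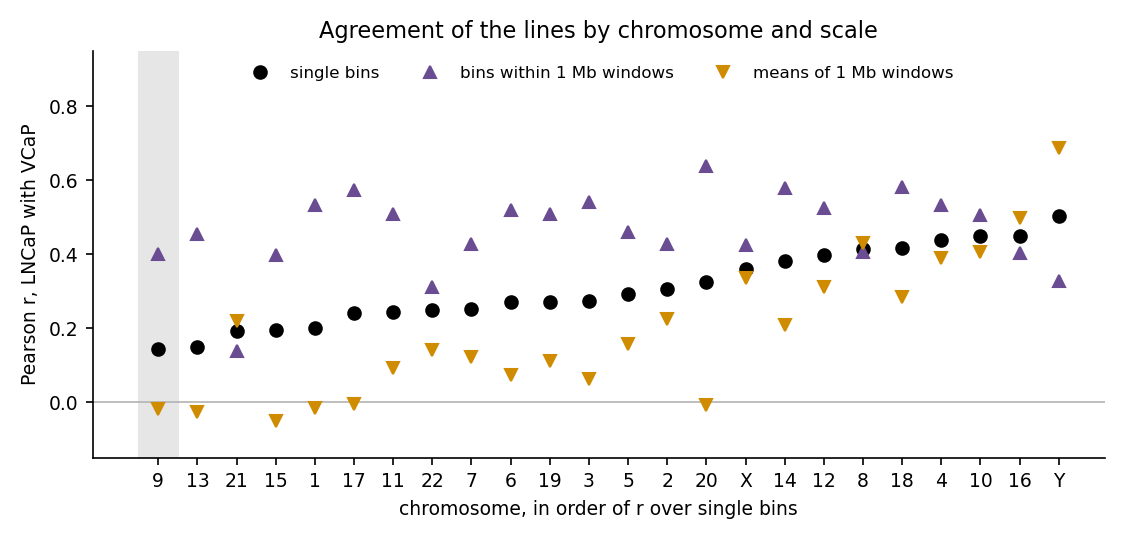
Pearson r of LNCaP with VCaP (vertical axis) for each chromosome, over single bins (circles), over bins within 1 Mb windows (triangles up) and over means of 1 Mb windows (triangles down), in order of the first. Chromosome 9, shaded, is lowest over single bins at 0.144, and within windows its 0.402 lies below the median of 0.483 but well above its own value for window means.

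In windows of 5 Mb the lines followed each other inside most windows even where their levels lay far apart. Of the 22 windows of chromosome 9 with at least 100 bins, 21 had a positive r and 11 had an r of at least 0.5. The highest values were 0.758 from 85 to 90 Mb, 0.751 from 130 to 135 Mb and 0.732 from 125 to 130 Mb. In 4 windows an r of at least 0.5 went with a median difference of at least 0.5. The SD of the median differences of windows was 0.40 on chromosome 9, against 0.23 on chromosome 10 and 0.38 on chromosome 11. An r of at least 0.5 was found in 50% of such windows on chromosome 9, 53.8% on chromosome 10 and 61.5% on chromosome 11. The median r of the windows was 0.494 on chromosome 9, rank 11 from the lowest of the 24 chromosomes. Agreement inside windows was thus not particular to chromosome 9.

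**Figure D5:**
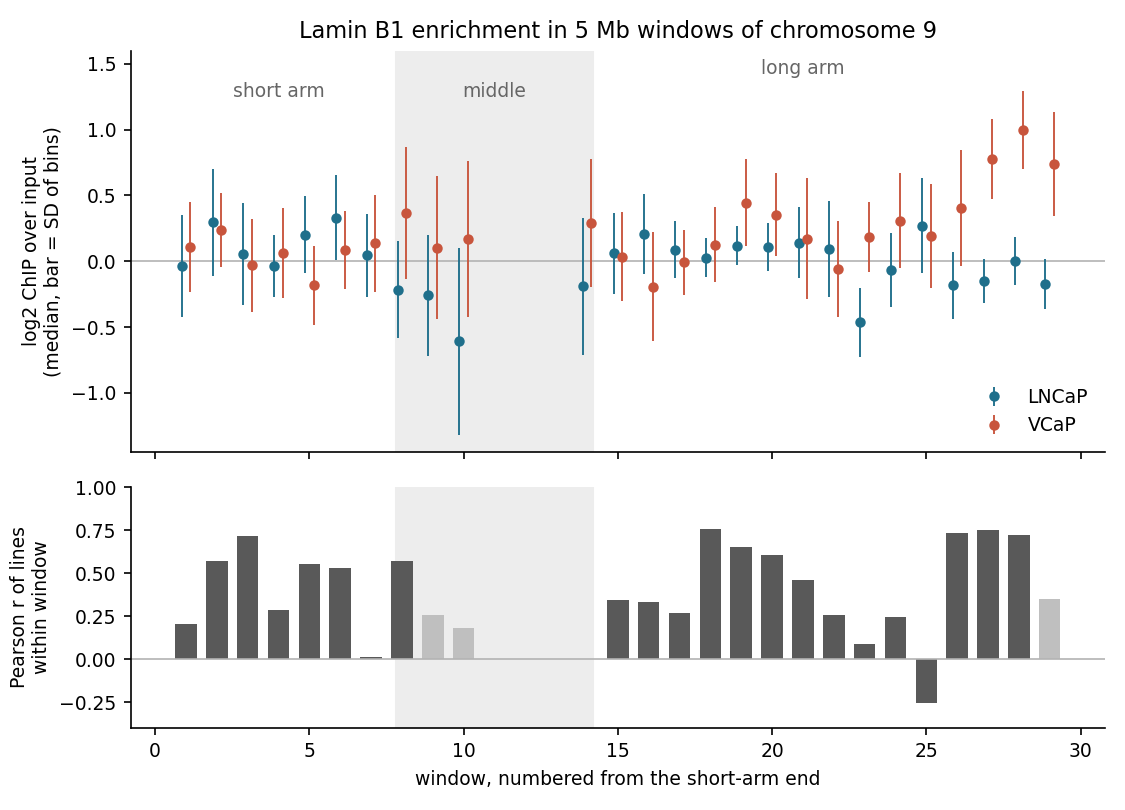
Top, median log2 ChIP over input of LNCaP (blue) and VCaP (red) in 5 Mb windows of chromosome 9 numbered from the short-arm end, with bars of 1 SD over the bins; bottom, Pearson r of the lines over the bins of each window, pale where a window holds under 100 bins. The lines separate most in the last windows of the long arm, where r is between 0.720 and 0.751 in windows 27 and 28 and the medians differ by 0.93 and 0.98.

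The largest stretch of unequal level was the distal long arm. From 130 Mb to the end at 141160000, the median log2 enrichment was -0.08 in LNCaP (interquartile range -0.20 to 0.06) and 0.89 in VCaP (0.65 to 1.06). VCaP was higher in 275 of the 276 bins, and the exception was the last bin of the table, with -0.05 in LNCaP and -0.90 in VCaP, beside the chromosome end. VCaP was associated in 98.6% of these bins and LNCaP in 12.3%. Despite this gap, the bins of the lines correlated at 0.720, so the same bins were relatively high and low in both lines.

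The longest VCaP domain of the chromosome lay in this stretch. A domain is a run of adjacent associated bins. It spanned 146 bins from 135280001 to 141120000, averaging 0.94 in VCaP against -0.02 in LNCaP, and 34 of its bins were associated in LNCaP. Those 34 bins formed an unbroken LNCaP domain from 137400001 to 138760000. There LNCaP averaged 0.20 and VCaP 1.15, above the VCaP average of the whole domain. Another VCaP domain, which began before 130 Mb, ran for 108 bins from 128760001 to 133080000, with means of 0.73 in VCaP and -0.13 in LNCaP, and no bin of it was associated in LNCaP.

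A second stretch with VCaP higher lay between 110 and 120 Mb. The median there was -0.26 in LNCaP and 0.23 in VCaP, with a difference of 0.50, and no bin was higher in LNCaP by 0.5 or more. From 110 to 115 Mb LNCaP was at -0.46, its lowest window outside the middle, with 0 of 125 bins associated, and VCaP was at 0.18 with 41 associated. The LNCaP trough began with a sharp step. At 109240001, the median of 8 bins with the averaging undone went from 0.35 to -0.49 in LNCaP, and from 0.16 to -0.05 in VCaP. From 110 to 115 Mb r was 0.0904.

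LNCaP was the higher line between 75 and 85 Mb. The medians were 0.13 in LNCaP and -0.09 in VCaP, with a difference of -0.32, and LNCaP was higher by at least 0.5 in 79 of 250 bins and VCaP in 0. LNCaP was associated in 89 bins and VCaP in none. The distal long arm and this stretch thus had opposite orders of the lines. Local agreement was low here, with an r of 0.264.

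The long arm beyond it was better matched. From 85 to 100 Mb the lines correlated at 0.676, with medians of 0.07 in LNCaP and 0.29 in VCaP. VCaP was associated in 59.6% of the bins and LNCaP in 27.8%. The longest stretches of the long arm associated in both lines were near it. One ran for 39 bins from 90360001 to 91920000, with means of 0.21 in LNCaP and 0.67 in VCaP, and another for 36 bins from 101120001 to 102560000, with means of 0.31 and 0.70. VCaP was the higher line in both, by 0.46 and 0.39, so a shared state did not mean an equal level.

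The window from 120 to 125 Mb was the only one of the 22 with a negative r, at -0.255. It held most of the longest LNCaP domain of the long arm, 76 bins from 119520001 to 122560000. The means of that domain were 0.55 in LNCaP and 0.11 in VCaP, and VCaP was associated in 16 of the 76 bins. LNCaP was associated in 56.0% of the bins of the window and VCaP in 35.2%. The medians of the whole window were close, at 0.27 in LNCaP and 0.19 in VCaP, so here the lines were high at different places of 1 window.

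On the short arm LNCaP was high from 20 to 30 Mb and VCaP in the last stretch before the middle. From 20 to 30 Mb the medians were 0.27 in LNCaP and -0.04 in VCaP, and 164 of 250 bins were associated in LNCaP against 14 in VCaP. From 35 to 39 Mb they were -0.18 and 0.45, and 0 of 100 bins were associated in LNCaP against 79 in VCaP. In both stretches the lines correlated across bins, at 0.576 and 0.591. The offsets of the lines in them had opposite directions. Leaving out the window from 35 to 40 Mb gave an r of 0.358, and without other windows in turn it was at least 0.223.

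The longest LNCaP domain of the chromosome overlapped the longest VCaP domain of the short arm. The LNCaP domain spanned 127 bins from 7400001 to 12480000 with a mean of 0.54, and 57 of these bins were associated in VCaP. The VCaP domain spanned 50 bins from 7320001 to 9320000, with means of 0.46 in VCaP and 0.54 in LNCaP, and 48 of its bins were associated in LNCaP. The run associated in both lines, 48 bins from 7400001 to 9320000, was the longest such run of chromosome 9. The lines had nearly the same level there, 0.56 in LNCaP and 0.47 in VCaP, with noise over bins of 0.05 on the mean difference of -0.09. Beyond 9320000 VCaP left the associated state for most of the remaining LNCaP domain.

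The longest runs associated in neither line lay on both arms. They held 90 bins from 82280001 to 85880000, 89 bins from 12480001 to 16040000 and 85 bins from 3200001 to 6600000. In the run from 12480001 the lines correlated at 0.651, with means of -0.16 in LNCaP and -0.23 in VCaP. In the run from 3200001 they correlated at 0.565, with -0.18 and -0.03. Bins outside the associated state thus also shared a local pattern in these runs, while in the run from 82280001 r was 0.208.

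A region was a run of 5 or more neighbouring bins that were associated in 1 line and not in the other. Chromosome 9 had 21 LNCaP-only regions, 10 on the short arm and 11 on the long arm, and 43 VCaP-only regions, 8 on the short arm, 9 in the middle and 26 on the long arm. The median length was 880 kb for LNCaP-only and 400 kb for VCaP-only regions. Over all common bins, VCaP-only bins were also more frequent than LNCaP-only bins, 23.8% against 17.2%. Regions of other chromosomes are not counted here, so these numbers and lengths are not read as particular to chromosome 9. Since the states define these regions, the direction of their differences is given by the choice.

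The LNCaP-only regions with the largest differences lay mainly in the LNCaP-high proximal long arm. The first ran from 76600001 to 77480000 (22 bins), and averaged 0.49 ± 0.13 (SD over bins) in LNCaP and -0.37 ± 0.26 in VCaP. Single bins ranged from 0.20 to 0.68 in LNCaP and from -0.66 to 0.12 in VCaP. The region was picked for its states and its difference, so this separation adds no support. The second ran from 75320001 to 75720000 (10 bins), with means of 0.39 in LNCaP and -0.41 in VCaP. The third, from 23920001 to 25240000 on the short arm (33 bins), had 0.26 and -0.35, and its bins correlated at 0.636 between the lines. The fourth, from 73920001 to 74280000 (9 bins), had 0.44 and -0.10. The fifth, from 103280001 to 104120000 (21 bins), had 0.50 and -0.02. None of the 5 lay beside a gap.

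The VCaP-only regions with the largest differences were in the middle, where most bins lay beside gaps. The first, from 46200001 to 46400000 (5 bins), averaged -0.89 ± 0.84 (SD over bins) in LNCaP and 0.79 ± 0.35 in VCaP, and all 5 bins were within 5 bins of a gap. The second, from 67480001 to 67840000 (9 bins, 6 beside a gap), had -0.85 ± 0.49 and 0.63 ± 0.28. The third, from 44720001 to 44960000 (6 bins, 5 beside a gap), had 0.01 ± 0.13 and 1.07 ± 0.23. The first 2 thus joined low LNCaP values of wide spread with VCaP values above 0, and the third rests on a high VCaP value. In the first, the medians were -0.32 in LNCaP and 0.88 in VCaP.

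The next regions, on the long arm, had a smaller spread. The fourth region, from 110360001 to 110720000 (9 bins), had -0.50 ± 0.06 in LNCaP and 0.47 ± 0.15 in VCaP and lay in the LNCaP trough described above. The fifth, from 135280001 to 137400000 (53 bins), had -0.05 ± 0.15 and 0.91 ± 0.27, with a mean difference of 0.96. The noise of that mean over its bins was 0.05, which holds no variation between libraries. In that region the lines correlated at 0.709. Outside the middle, the region from 138760001 to 141120000 (59 bins) came next to it, with -0.10 and 0.85 and an r of 0.698.

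LNCaP had fewer domains, with a longer median length. The lower number was not particular to chromosome 9. Over all common bins LNCaP also had fewer domain borders, 1839 against 2341 in VCaP. On chromosome 10 the borders numbered 96 and 131, and on chromosome 11 they numbered 101 and 133. Domain lengths on other chromosomes are not given here. Over the common bins of chromosome 9, there were 38 LNCaP domains, of median length 640 kb (quartiles 290 and 1230 kb), and 66 VCaP domains, of median length 360 kb (160 and 790 kb). Short-arm counts were 11 and 14, with medians of 840 and 420 kb, and on the long arm 21 and 30, with medians of 720 and 540 kb. The longest long-arm domains were nonetheless those of VCaP, with an upper quartile of 1540 kb against 1240 kb, a maximum of 5840 kb against 3040 kb and 12 domains of at least 1 Mb against 7. In the middle there were 6 and 22, and none was longer than 400 kb; gaps in the table end a domain. The longest there held 4 bins in LNCaP, from 69880001 to 70040000, all associated in VCaP too, and 10 in VCaP, from 68120001 to 68520000, none associated in LNCaP. Domains covered 35.6 Mb in LNCaP and 47.2 Mb in VCaP.

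Few domain borders were at the same place. Of the 75 LNCaP borders on chromosome 9, 13 (17.3%) had a VCaP border of the same direction within 2 bins, and these were 12.7% of the 102 VCaP borders. Over all common bins the shares were 24.1% of LNCaP and 18.9% of VCaP borders, and on chromosome 10 they were 40.6% and 29.8%. By part, 4 of 22 LNCaP borders were shared on the short arm, 2 of 11 in the middle and 7 of 42 on the long arm.

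The sharpest changes of the values were mostly seen in both lines. The 5 largest steps of each line, as the median of 8 bins on each side with the averaging undone, were located outside the middle. The largest LNCaP step lay at 125640001, from 0.44 to -0.65, and VCaP went from 0.38 to -0.44 at the same place. The largest VCaP step lay at 37040001, from 0.93 to -0.59, and LNCaP went from 0.11 to -0.46 there. In 8 of these 10 steps, which were picked after the values were seen, the other line stepped the same way by at least 0.43. The exceptions were the LNCaP step at 109240001, given above, and that at 1120001, from -0.09 to 0.87, where VCaP went from 0.40 to 0.20. The LNCaP step at 125640001 and the VCaP step at 125960001 used the same 8 bins between them, so the 10 steps are not all separate. Over all positions the steps of the lines correlated at 0.520 on the short arm and 0.454 on the long arm, and steps at neighbouring positions share bins.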

How the data were processed

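Lamin B1 ChIP-seq libraries and inputs of LNCaP and VCaP, 1 each, were grouped by the cell line and antibody in the titles. The authors deposited log2 enrichment of ChIP over input and, as the table's name says, a state per entry from a hidden Markov model (AD or iAD); AD entries had the higher mean enrichment and were taken as associated. The submitters' processing notes name hg19 and STAR; scaling, filters and other settings are not given in the sources used here. Chromosome 9 and the comparisons were chosen with earlier results of these data known. Entries wider than 40 kb had a median absolute deposited log2 value of 0.21 in LNCaP and 0.33 in VCaP, and of 0.0039 and 0.0081 once a trailing mean of 3 entries was undone, so deposited values were treated as such means, which places signal about 40 kb downstream and makes neighbours dependent. Noise is the median absolute deviation of differences between bins, 3 apart for the difference between lines, scaled to an SD of 1 bin. For the mean of a run, the noise over all common bins was divided by the square root of its number of bins over 3. That treats bins 3 apart as separate and holds no variation between libraries. Windows had to be at least 50% filled. Regions named were the 5 per direction with the largest mean difference, the 3 longest runs associated in both lines and in neither, and the longest domain of each line per arm; stretches and steps were picked after their values were seen. No test was run, as each group has 1 library. Genes and bases were not used here: the reference tables were for a different build. Procedures were tested on simulated data. Alternatives covered the scaling, the averaging, the call of the state, bins beside gaps and window size. Software was scipy 1.17.1, numpy 2.4.6, matplotlib 3.10.9 and pandas 2.3.3 under Python 3.11.15.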

Additional observations from a re-analysis of the deposited data

Results flagged for a closer look

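In 10 of the 26 windows of 5 Mb on chromosome 9 with at least 25 bins, and in the middle as a whole, the median enrichment had opposite signs in the lines, each at least 0.1 from 0. With 1 library per group the differences were not tested. LNCaP was above 0 and VCaP below 0 in 2 windows, with a median VCaP minus LNCaP difference of -0.28 from 20 to 25 Mb and -0.49 from 75 to 80 Mb. VCaP was above 0 and LNCaP below 0 in the other 8. Among the windows of the middle and its short-arm flank, the difference was 0.59 from 35 to 40 Mb, 0.43 from 40 to 45 Mb, 0.77 from 45 to 50 Mb and 0.43 from 65 to 70 Mb, and it was 0.45 over the middle as a whole, where most bins lie beside gaps. On the long arm it was 0.60 from 110 to 115 Mb, 0.54 from 125 to 130 Mb, 0.93 from 130 to 135 Mb and 0.80 from 140 Mb on. The sign of a median depends on the zero point of each line, which the authors' scaling sets. Opposite signs were not particular to chromosome 9. Among windows with at least 100 bins, and with no minimum distance from 0, they occurred in 12 of 22 on chromosome 9. The counts were 9 of 26 on chromosome 10, 7 of 26 on chromosome 11 and 19 of 30 on chromosome 7. By this looser rule, the lowest share of any chromosome was 0 of 15 on chromosome 16, and the highest was 5 of 6 on chromosome 22. Under the rule behind the 10 of 26 windows, no count for other chromosomes is given here. The 10 of 26 thus has no background of its own, and is not read as high or low.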

How the results depend on the processing

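For 29 results, 83 alternative values were computed. Of these, 45 stayed within the error or 1.5 times the count reported and 38 moved. For shares and r, the error was a 95% interval over bins, windows or borders, which holds no variation between libraries. The level differences kept their sign in all 12 alternatives but mostly moved in size, by more than the bin noise scaled to a median. Centring the lines gave -0.23 on the short arm, 0.32 in the middle and 0.11 on the long arm, quantile normalization gave -0.17, 0.37 and 0.12, and undoing the average gave -0.066 on the short arm and 0.52 in the middle. Without bins beside gaps the differences were 0.31 in the middle and 0.23 on the long arm. Single-bin r stayed above 0 in all 15 alternatives. Calling bins over 0 associated gave shares of 53.2% (LNCaP) and 61.0% (VCaP) on the short arm, 20.4% and 59.5% in the middle and 53.6% and 71.4% on the long arm. With a running median of 5 bins these were 53.1% and 62.8%, 14.6% and 61.7%, and 53.5% and 72.8%, the classes held 1109 bins in both, 560 in neither and 383 in LNCaP only, and domains numbered 94 and 120. Without bins beside gaps the middle's shares were 12.9% and 25.9%. Undoing the average gave a long-arm r of 0.168. In windows of 5 Mb, r of the means was -0.470 on the short arm (8 windows) and -0.294 on the chromosome, and r within windows was 0.408 on the short arm, 0.339 on the long arm and 0.343 on the chromosome. With 10 bins required, 26 VCaP-only regions were found, and a tolerance of 5 bins raised shared borders to 29.3% (LNCaP) and 21.6% (VCaP), both by construction. The cause of the other changes was not tested. Leaving out the bins from 125 Mb on, and counting large differences relative to the genome shift, were chosen after seeing the data. No paired analysis was possible because the labels number no replicates. Depth is unknown, so noise between bins is the only limit given on single regions.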
